A study of Mus musculus with 12 samples.

Results

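The transcription factor genes Tcf7, Lef1, Bach2, Satb1, Foxp1 and Klf2, which mark or maintain the naive, resting state of T cells, were examined for the accessibility of their loci in regulatory T cells (Treg). Every region of the deposited accessibility table that overlapped one of these 6 gene bodies, extended by 20 kb on each side, was taken, which gave 233 of the 118680 regions of the table. Bach2 contributed 79 regions, Foxp1 68, Lef1 38, Satb1 27, Tcf7 16 and Klf2 5. Of the 233 regions, 157 passed the filter on low counts and were tested among 69957 regions in all. The other 76 were 29 regions of Foxp1, 25 of Bach2, 10 each of Lef1 and Satb1 and 2 of Tcf7, and they carry no test.

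The regions are open chromatin, mapped by ATAC-seq, an assay in which a transposase inserts sequencing adapters where DNA is exposed. The 12 libraries came from YFP+ Treg sorted from mice, 3 libraries in each of 4 groups. WT Treg came from Foxp3-YFP-Cre mice and Ikzf1-cko Treg from Ikzf1-fl-Foxp3-YFP-Cre mice, so that both genotypes carried the Cre reporter, which the Foxp3 gene drives in Treg, and in the cko the Cre was set to delete Ikzf1, which encodes the zinc finger factor Ikaros, in these cells. Cells were taken directly (ex vivo) or were stimulated for 4 hr on plates coated with antibodies to CD3 and to CD28, and each library held 100000 cells. By the methods, sorted Treg were divided equally between these states, so libraries of the same genotype may share a preparation. The main test treated them as unpaired. The methods call the libraries of a group biological replicates, but nothing in the labels says which came from separate mice, so the p-values measure the spread between these libraries.

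TCF1, the product of Tcf7, and LEF1 are closely related HMG-box factors that act with beta-catenin at the end of the Wnt pathway and are abundant in naive T cells. BACH2 is a basic leucine zipper repressor that restrains effector programs and competes with AP-1 factors for similar sites. SATB1 organizes chromatin loops in thymocytes and T cells, FOXP1 is a forkhead factor that keeps naive T cells quiescent, and KLF2 is a zinc finger activator of the homing receptors of resting T cells. In the Treg lineage these genes are known for high expression in resting cells and lower expression in effector cells.

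Accessibility is given as FPKM, the reads in a region per kb of its length and per 1000000 counted reads of the library. The libraries held 4808916 to 15355521 counted reads, and each Ikzf1-cko library was deeper than each WT library. A region was called where edgeR's quasi-likelihood test gave an adjusted p under 0.05 and the log2 fold change exceeded 1 in size, and it is said to have risen or fallen where the adjusted p alone was under 0.05. The share of counted reads in the weakest 20% of tested regions was 2.60 to 3.62% in WT ex vivo, 1.90 to 2.76% in Ikzf1-cko ex vivo, 6 to 7.10% in stimulated WT and 2.49 to 3.30% in stimulated Ikzf1-cko libraries. Regions lay over the starts of the Treg and T cell genes Foxp3, Il2ra, Ctla4, Cd3e and Cd4 and 968 bp from that of Ikzf2. None lay over the starts of the B cell and myeloid genes Cd79a, Ms4a1, Lyz2, Csf1r, Itgam and Spi1, but one lay 442 bp from that of Spi1, with 9.86 to 14.7 FPKM as group means. The start of Cd8a, a gene of cytotoxic T cells, had a mean of 8.45 FPKM in WT ex vivo and 3.58 FPKM in Ikzf1-cko ex vivo, and that of Cd8b1 13.4 and 8.92 FPKM. The Foxp3 start had 6.70 FPKM in WT ex vivo and 11.2 FPKM in Ikzf1-cko ex vivo. Of the erythroid genes, Gata1 had a weak region over its start, with 4.41 to 8.53 FPKM as group means, and Klf1 one 562 bp from its start, with 14.6 to 18.5 FPKM. The part of other cells in the comparisons was not tested. No tested region of Ikzf1 itself lay over an exon past exon 1, so its accessibility does not check the genotype labels.

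The sequences of 9 regions that carry the comparisons are given first, as read from the plus strand of mm9. They are the most accessible region near Tcf7, the 3 regions lower in Ikzf1-cko Treg by over 2-fold in both states (Lef1 OCR_74826, Satb1 OCR_51077 and OCR_51085), the Foxp1 region lower ex vivo, the Foxp1 region whose genotype difference changed with stimulation, neighbouring Bach2 regions that closed on stimulation, and the Klf2 region lower in both states. Each is at most 300 bases from the middle of its region, and capitals mark the letters of the motifs described next.
Tcf7 OCR_17914, chr11:52113160-52113459, upstream: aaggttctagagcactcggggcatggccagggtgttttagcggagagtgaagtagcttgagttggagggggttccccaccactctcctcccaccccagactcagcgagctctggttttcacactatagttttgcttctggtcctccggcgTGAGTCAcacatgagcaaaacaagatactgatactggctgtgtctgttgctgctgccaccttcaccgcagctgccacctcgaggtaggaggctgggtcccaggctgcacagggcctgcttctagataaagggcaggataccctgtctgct
Lef1 OCR_74826, chr3:130847030-130847329, intron: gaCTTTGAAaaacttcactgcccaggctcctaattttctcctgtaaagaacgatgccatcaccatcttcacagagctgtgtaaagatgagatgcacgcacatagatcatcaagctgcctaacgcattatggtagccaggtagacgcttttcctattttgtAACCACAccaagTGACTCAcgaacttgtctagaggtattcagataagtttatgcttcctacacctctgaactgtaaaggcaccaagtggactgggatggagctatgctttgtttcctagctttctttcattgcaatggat
Satb1 OCR_51077, chr17:51919315-51919614, intron: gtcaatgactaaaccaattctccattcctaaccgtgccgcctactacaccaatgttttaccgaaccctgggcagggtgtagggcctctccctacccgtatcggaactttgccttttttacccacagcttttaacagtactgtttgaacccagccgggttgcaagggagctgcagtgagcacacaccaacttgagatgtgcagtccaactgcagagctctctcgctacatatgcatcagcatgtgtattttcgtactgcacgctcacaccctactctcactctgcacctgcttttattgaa
Satb1 OCR_51085, chr17:51939598-51939897, intron: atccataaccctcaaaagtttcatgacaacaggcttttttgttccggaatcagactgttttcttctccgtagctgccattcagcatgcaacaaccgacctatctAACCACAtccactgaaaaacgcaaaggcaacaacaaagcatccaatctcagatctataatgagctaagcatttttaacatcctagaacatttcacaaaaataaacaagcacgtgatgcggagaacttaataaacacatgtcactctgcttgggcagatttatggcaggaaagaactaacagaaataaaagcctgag
Foxp1 OCR_95273, chr6:99141852-99142151, intron: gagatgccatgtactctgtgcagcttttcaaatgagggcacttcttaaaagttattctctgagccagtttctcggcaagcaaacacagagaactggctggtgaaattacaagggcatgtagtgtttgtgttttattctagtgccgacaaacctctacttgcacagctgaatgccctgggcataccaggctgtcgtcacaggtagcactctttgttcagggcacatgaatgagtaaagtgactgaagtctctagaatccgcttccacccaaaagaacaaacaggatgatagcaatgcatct
Foxp1 OCR_95264, chr6:99050597-99050858, intron: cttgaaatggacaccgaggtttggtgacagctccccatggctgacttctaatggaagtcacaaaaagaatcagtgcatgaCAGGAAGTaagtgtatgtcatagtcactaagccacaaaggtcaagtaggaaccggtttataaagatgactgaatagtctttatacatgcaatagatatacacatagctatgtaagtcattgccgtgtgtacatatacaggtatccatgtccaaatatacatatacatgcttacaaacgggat
Bach2 OCR_77799, chr4:32488444-32488743, intron: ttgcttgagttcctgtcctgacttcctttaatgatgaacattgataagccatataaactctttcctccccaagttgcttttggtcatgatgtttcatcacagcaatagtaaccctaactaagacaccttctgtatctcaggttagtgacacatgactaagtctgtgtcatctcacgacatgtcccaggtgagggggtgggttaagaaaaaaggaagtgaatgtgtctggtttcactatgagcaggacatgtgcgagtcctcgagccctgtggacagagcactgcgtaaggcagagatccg
Bach2 OCR_77800, chr4:32492057-32492356, intron: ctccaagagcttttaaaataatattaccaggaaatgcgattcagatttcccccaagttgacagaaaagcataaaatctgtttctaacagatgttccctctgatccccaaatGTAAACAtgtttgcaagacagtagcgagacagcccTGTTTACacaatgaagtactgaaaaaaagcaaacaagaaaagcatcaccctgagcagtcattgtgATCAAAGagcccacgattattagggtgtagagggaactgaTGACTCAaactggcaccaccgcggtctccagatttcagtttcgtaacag
Klf2 OCR_108154, chr8:74847955-74848254, downstream: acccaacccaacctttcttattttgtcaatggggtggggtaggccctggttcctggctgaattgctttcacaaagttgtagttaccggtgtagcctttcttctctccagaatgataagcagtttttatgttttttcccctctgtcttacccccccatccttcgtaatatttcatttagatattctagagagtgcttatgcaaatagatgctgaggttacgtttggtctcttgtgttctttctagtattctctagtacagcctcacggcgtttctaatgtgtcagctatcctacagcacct

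The motifs were searched on both strands as exact letters: CTTTGAT or CTTTGAA for TCF/LEF, TGGGAA for Ikaros, TGTTTAC for forkhead, TGAGTCA or TGACTCA for AP-1, TGTGGTT for RUNX, CAGGAAGT for ETS, GGGTGTGG for KLF and TGGAAA for NFAT factors. The AP-1 letters are also the core that BACH2 binds, so the letters cannot tell the factors apart. Lef1 OCR_74826 held letters of 3 kinds in its window, TCF/LEF at bases 3 to 9, RUNX at 161 to 167 and AP-1 at 173 to 179, counted from 1 at the first printed base. Bach2 OCR_77800 held forkhead letters at bases 112 to 118 and 147 to 153, TCF/LEF at 212 to 218 and AP-1 at 252 to 258. In its printed window Satb1 OCR_51085 held only RUNX letters, at bases 105 to 111. Likewise, the window of Foxp1 OCR_95264 held only ETS letters, at 81 to 88, and that of Tcf7 OCR_17914 only AP-1 letters, at 151 to 157. Outside its window OCR_17914 also held NFAT letters. No match stood in the printed windows of Satb1 OCR_51077, Foxp1 OCR_95273, Bach2 OCR_77799 or Klf2 OCR_108154.

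Over the 157 tested member regions, TCF/LEF letters stood in 33.1%, against 21.0% of tested regions of the same lengths. AP-1 letters stood in 28% against 17.6%, and forkhead letters in 14.0% against 8.07%. Ikaros letters stood in 36.9% against 42.5%, NFAT letters in 42.7% against 39.8%, RUNX letters in 19.7% against 17.2%, ETS letters in 10.8% against 10.7% and KLF letters in 7.64% against 8.19%. The 54 tested regions of Bach2 held TCF/LEF letters in 38.9%, where regions of their lengths gave 20.8%, and Ikaros letters in 29.6% against 42.4%. TCF/LEF shares were 35.7% against 21.2% at Tcf7, 28.6% against 18.8% at Lef1 and 33.3% against 21.7% at Foxp1. They were 23.5% against 21.7% at Satb1 and 20% against 25.5% at Klf2. Forkhead shares were 20.4% against 8.01% at Bach2, 7.14% against 7.10% at Lef1 and 10.3% against 8.32% at Foxp1. At Tcf7, Satb1 and Klf2 they were 14.3% against 8.48%, 11.8% against 8.43% and 20% against 9.68%. None of the 7 regions lower in Ikzf1-cko Treg ex vivo held the Ikaros letters, which stood in 31.5% of tested regions of their short lengths. The same 7 held no NFAT (29.2%), forkhead (5.28%), ETS (7.96%) or KLF (5.78%) letters either. RUNX letters stood in 3 of them (12.8%), AP-1 in 2 (14.2%) and TCF/LEF in 1 (15%), so the absence was not particular to the Ikaros letters. These shares are descriptions, without a test, and exact letters miss variants of each motif.

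Accessibility spread differently along the 6 genes. Tcf7 (chr11:52065873-52096681) had 16 regions, and its most accessible one lay 16.6 kb upstream of the 5' start. Bach2 (chr4:32325779-32673083) and Foxp1 (chr6:98875332-99216526) are each over 300 kb long and held most of their regions in introns, 73 of 79 and 57 of 68. Lef1 (chr3:130813389-130927274) had 24 of 38 regions in introns, with its strongest cluster 43.6 to 49.1 kb into the gene. Satb1 (chr17:51875512-51972615) was most accessible at its start, and so was Klf2 (chr8:74842932-74845555), a gene of 2.6 kb with 5 regions in its window.

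**Figure D1:**
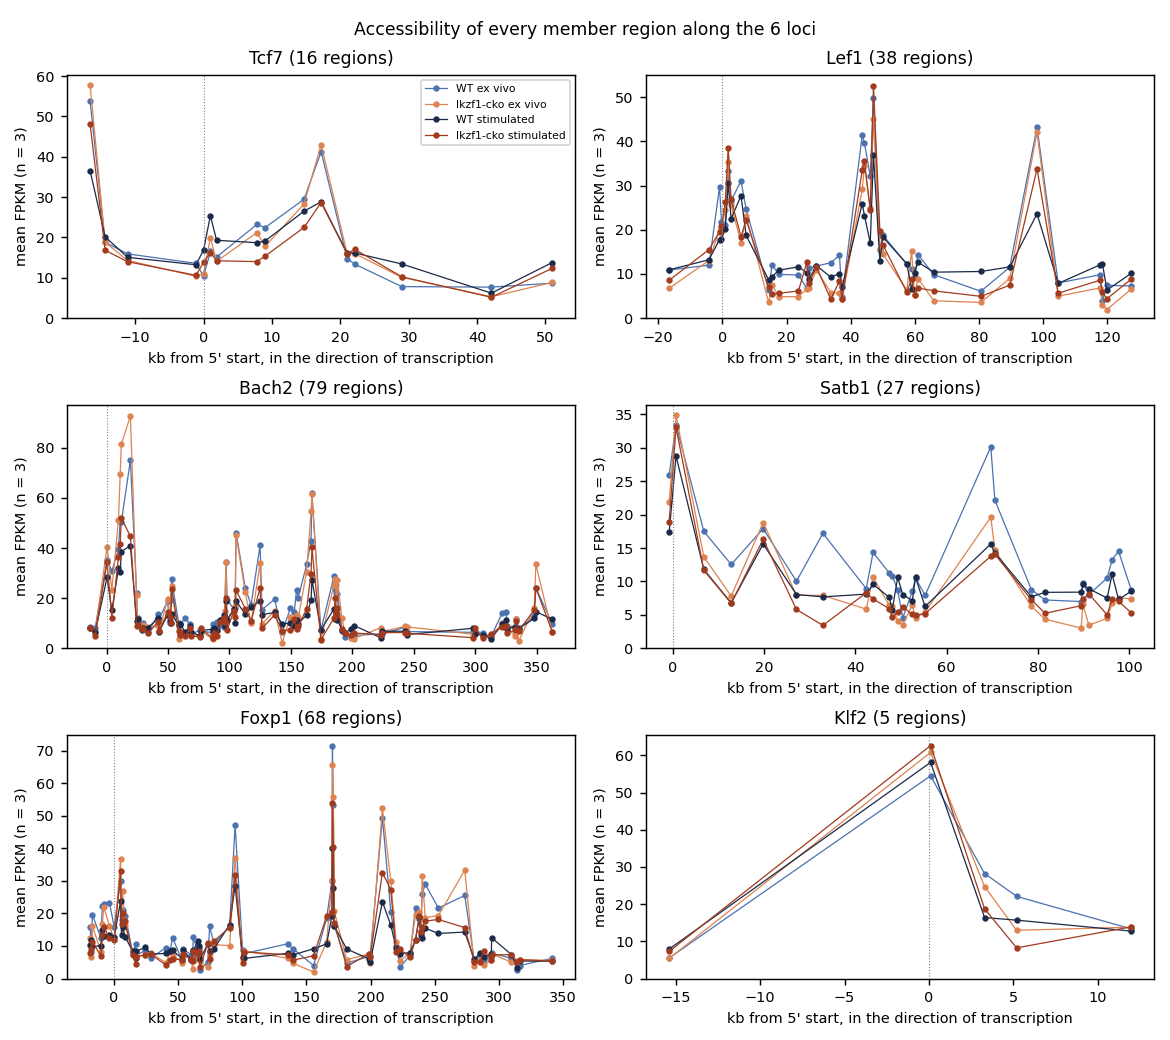
Mean FPKM (n = 3 libraries) of each of the 233 regions against its distance in kb from the 5' start of the gene, in the direction of transcription, for the 4 groups; lines join neighbouring regions and have no other meaning. The peaks of Bach2 near 19.4 and 167.1 kb and of Foxp1 near 209.3 kb are lower in both stimulated groups than in both ex vivo groups.

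At the region over or next to the 5' start of each gene but Tcf7 the differences were small. The region over the Klf2 start (OCR_108152) measured 51.5, 52.3 and 59.8 FPKM in WT ex vivo, 57.8, 59.9 and 64.8 in Ikzf1-cko ex vivo, 55.9, 61.0 and 57.5 in stimulated WT and 67.6, 57.2 and 63.2 in stimulated Ikzf1-cko libraries, and it passed no test, with adjusted p values of 0.18 to 0.86, although with loess normalization its genotype difference after stimulation was -0.27 (adjusted p = 0.0065). The 4 groups overlapped there. The Satb1 start (OCR_51090), which was higher in stimulated Ikzf1-cko than in stimulated WT Treg by 0.20 (adjusted p = 0.041; -0.19 with loess normalization), measured 32.7, 33.4 and 34.1 FPKM in WT ex vivo and 28.6, 31.5 and 26.1 in stimulated WT libraries, a fall of small size (log2 fold change -0.22, SE 0.08, adjusted p = 0.034) that turned to 0.051 under loess normalization (adjusted p = 0.64). The Bach2 start (OCR_77752) fell with stimulation in both genotypes, by 0.32 on the log2 scale in WT and by 0.24 in Ikzf1-cko Treg (adjusted p = 0.0018 and 0.014). Its genotype difference after stimulation was 0.28 (adjusted p = 0.0037) and turned to -0.11 with loess normalization (adjusted p = 0.26). The Foxp1 start (OCR_95296) and the region next to the Lef1 start (OCR_74813) passed no test in the 5 comparisons. Some genes had regions over other annotated starts. Lef1 OCR_74815, over such starts, was higher in stimulated Ikzf1-cko than in stimulated WT Treg with no overlap (0.34, SE 0.10, adjusted p = 0.0041). Over the 9 tested regions at any annotated start, log2 fold changes between genotypes ex vivo ran from -0.42 to 0.20. With stimulation of WT Treg they ran from -0.57 to 0.68.

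At Tcf7 the start rose. The region over its start (OCR_17910) measured 9.49, 10.6 and 11.1 FPKM in WT ex vivo libraries and 11.5, 19.7 and 19.6 after stimulation, a rise with no overlap (log2 fold change 0.68, SE 0.15, adjusted p = 5.2e-04). In Ikzf1-cko Treg it measured 10.5, 12 and 10.5 FPKM ex vivo and 13.3, 13.0 and 15.4 after stimulation, which did not pass the test (0.34, SE 0.13, adjusted p = 0.050). The difference between these responses was -0.34 (SE 0.20, adjusted p = 0.29), so the responses were not shown to differ. The strong upstream region OCR_17914 moved the other way, from 52.6, 53.5 and 55.7 FPKM to 33.4, 39.8 and 36.5 in WT (log2 fold change -0.57, SE 0.10, adjusted p = 3.6e-05) and from 59.8, 60.7 and 52.8 to 49.1, 44.9 and 50.4 in Ikzf1-cko Treg (-0.27, SE 0.08, adjusted p = 0.016). After stimulation it was more accessible in Ikzf1-cko than in WT Treg (0.40, SE 0.10, adjusted p = 9.3e-04), with no overlap. No region of Tcf7 was called by edgeR in any of the 5 comparisons. Of its 14 tested regions, 2, 2, 5, 6 and 1 had an unadjusted p under 0.05 in the ex vivo genotype, stimulated genotype, WT stimulation, Ikzf1-cko stimulation and between-state comparisons.

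Ex vivo, in Ikzf1-cko Treg, regions of Lef1 and Satb1 lost accessibility and none of the 157 regions was called higher. The 7 regions called lower were 3 of Lef1, 3 of Satb1 and 1 of Foxp1. Among all tested regions 4.04% were called lower and 0.588% higher in this comparison, and 7 of 157 is 4.46%, near that background. Under the adjusted p alone 38 members fell and 7 rose, where 12.7% of all regions fell and 8.78% rose. With TMM factors, which moved the median of all regions from -0.13 to -0.018, 25 members fell and 17 rose, and changes in this comparison are best read against that shift. The falls stood at Satb1 in 9 of 17 tested regions, at Lef1 in 11 of 28, at Bach2 in 11 of 54, at Foxp1 in 6 of 39, at Klf2 in 1 of 5 and at Tcf7 in 0 of 14, where 2 regions had an unadjusted p under 0.05. The median log2 fold change was -0.62 over Satb1, -0.36 over Lef1 and -0.13 over all tested regions.

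**Figure D2:**
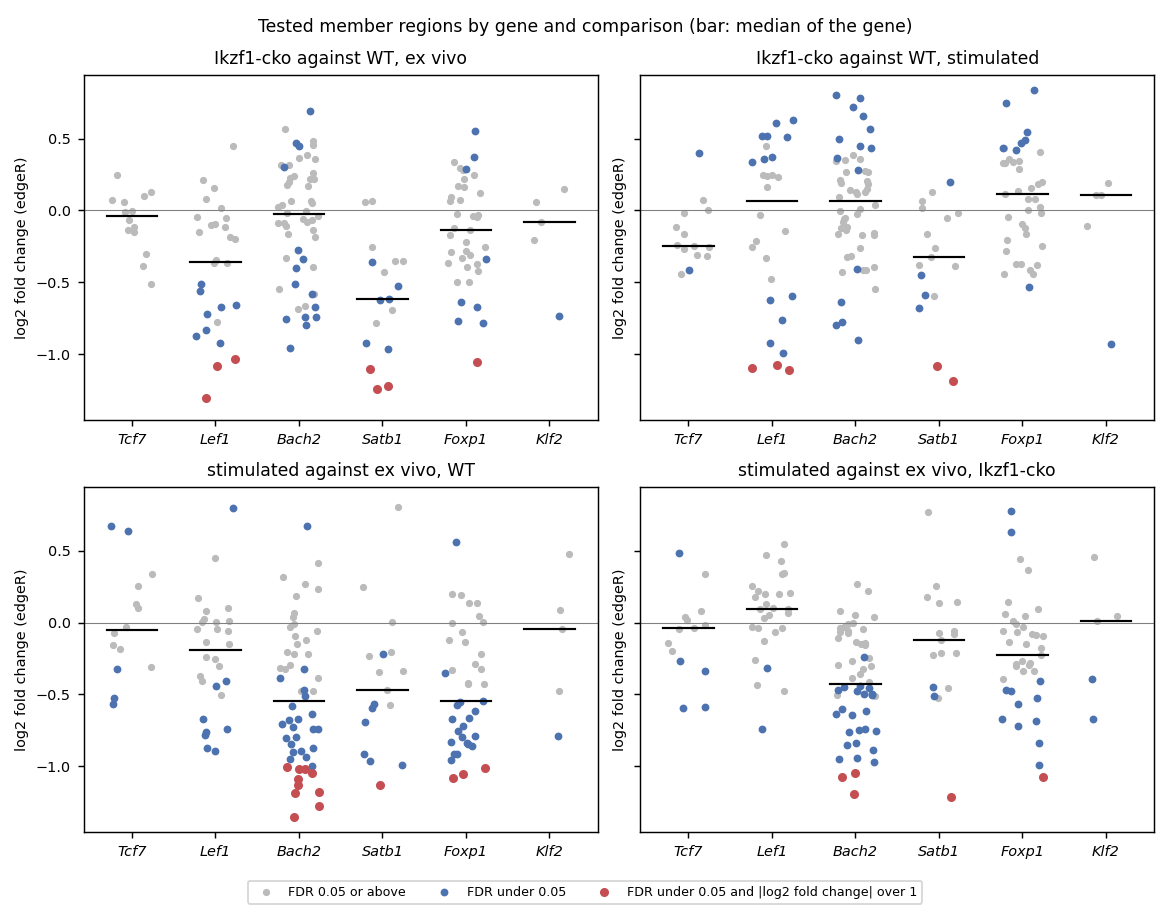
Log2 fold change (edgeR, library totals) of the 157 tested regions by gene in the genotype comparisons (top) and the stimulation comparisons (bottom), coloured by whether the adjusted p was under 0.05 and the size over 1, with a bar at the median of each gene. The called regions lie at Lef1, Satb1 and Foxp1 in the top left panel and mostly at Bach2 and Foxp1 in the bottom left panel, and all are below 0.

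At Satb1, 2 regions were called lower in both states. The intronic region OCR_51077 measured 9.39, 11.5 and 10.7 FPKM in WT ex vivo and 3.88, 5.71 and 3.94 in Ikzf1-cko ex vivo libraries (log2 fold change -1.22, SE 0.32, adjusted p = 0.0059), with no overlap. After stimulation it measured 9.41, 13.4 and 9.02 FPKM in WT and 5, 5.24 and 4.73 in Ikzf1-cko libraries (-1.09, SE 0.33, adjusted p = 0.0073), again with no overlap. With stimulation it had log2 fold changes of 0.00 (SE 0.32) in WT and 0.14 (SE 0.33) in Ikzf1-cko Treg, neither past the test, but with loess normalization the WT value was -0.88 (adjusted p = 0.017). The region OCR_51085, also intronic, was called lower in all 4 comparisons. It measured 18.7, 15.8 and 17.1 FPKM in WT ex vivo, 8.57, 8.20 and 6.97 in Ikzf1-cko ex vivo, 8.29, 10.9 and 3.91 in stimulated WT and 4.42, 2.87 and 3.01 in stimulated Ikzf1-cko libraries. WT ex vivo Treg were thus above the 9 other libraries, while stimulated WT and ex vivo Ikzf1-cko libraries overlapped. The genotype difference was -1.10 ex vivo (SE 0.29, adjusted p = 0.0068) and -1.19 after stimulation (SE 0.39, adjusted p = 0.011), and between those states it differed by -0.08 (SE 0.45, adjusted p = 0.93). The region rests on 6 to 47 reads per library.

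Further along Satb1, the region over exon 11 (OCR_51068) measured 9.68, 12.2 and 9.67 FPKM in WT ex vivo and 3.71, 3.98 and 5.80 in Ikzf1-cko ex vivo libraries (log2 fold change -1.24, SE 0.28, adjusted p = 0.0016). The fall with the smallest p of the locus was at OCR_51066, just downstream of the gene, from 14.2, 15.1 and 14.2 to 9.44, 7.02 and 6.24 FPKM (-0.93, SE 0.15, adjusted p = 4.5e-05). After stimulation OCR_51066 measured 6.29, 9.01 and 6.63 FPKM in WT and 7.13, 7.11 and 6.90 in Ikzf1-cko libraries, so the genotypes then overlapped. The stronger intronic region OCR_51075 fell ex vivo as well, from 27.4, 31.6 and 31.4 to 22.7, 19.0 and 17.2 FPKM (-0.62, SE 0.11, adjusted p = 1.6e-04).

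Lef1 lost accessibility ex vivo at weak and at strong regions, and the 3 called ones were weak introns. Among the stronger regions, OCR_74817, over an exon, measured 33.6, 30.4 and 29.2 FPKM in WT and 17.7, 19.8 and 13.8 in Ikzf1-cko ex vivo libraries (log2 fold change -0.84, SE 0.18, adjusted p = 0.0012), with no overlap. Intronic OCR_74829 measured 41.4, 39.3 and 43.7 against 27.3, 31.3 and 28.9 FPKM (-0.51, SE 0.12, adjusted p = 0.0030). Of the called regions, OCR_74827 measured 13.1, 14.8 and 14.8 FPKM in WT and 5.44, 6.98 and 4.76 in Ikzf1-cko ex vivo libraries (log2 fold change -1.31, SE 0.27, adjusted p = 7.6e-04), the largest fall of the members in this comparison. After stimulation it measured 10.2, 9.62 and 10.3 FPKM in WT and 8.73, 7.56 and 8.91 in Ikzf1-cko libraries, which did not pass the test (-0.26, SE 0.29, adjusted p = 0.49). OCR_74821 measured 9.05, 9.75 and 10.9 FPKM in WT and 4.00, 6.09 and 4.54 in Ikzf1-cko ex vivo libraries (-1.03, SE 0.25, adjusted p = 0.0040). OCR_74826 measured 14.2, 11.1 and 12.3 against 6.91, 6.08 and 4.40 FPKM ex vivo (-1.09, SE 0.36, adjusted p = 0.030). After stimulation it measured 14.4, 4.11 and 9.36 FPKM in WT and 3.49, 4.58 and 4.77 in Ikzf1-cko libraries, which overlapped although the region was called (-1.11, SE 0.41, adjusted p = 0.024). The SD of its stimulated WT libraries, 5.12 FPKM, was the widest of the 9 regions called lower in either genotype comparison.

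The single ex vivo call at Foxp1, intronic OCR_95273, measured 18.7, 15.5 and 14.0 FPKM in WT and 8.87, 7.77 and 5.82 in Ikzf1-cko libraries (log2 fold change -1.06, SE 0.18, adjusted p = 8.5e-05). At Klf2, the downstream region OCR_108154 measured 24.7, 20.8 and 20.9 FPKM in WT and 17.6, 10.6 and 10.7 in Ikzf1-cko ex vivo libraries (-0.73, SE 0.20, adjusted p = 0.0085). In stimulated Treg it measured 13.2, 20.3 and 13.6 FPKM in WT and 8.34, 8.70 and 7.70 in Ikzf1-cko libraries (-0.93, SE 0.25, adjusted p = 0.0025). It was lower in Ikzf1-cko Treg in both states with no overlap.

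**Figure D3:**
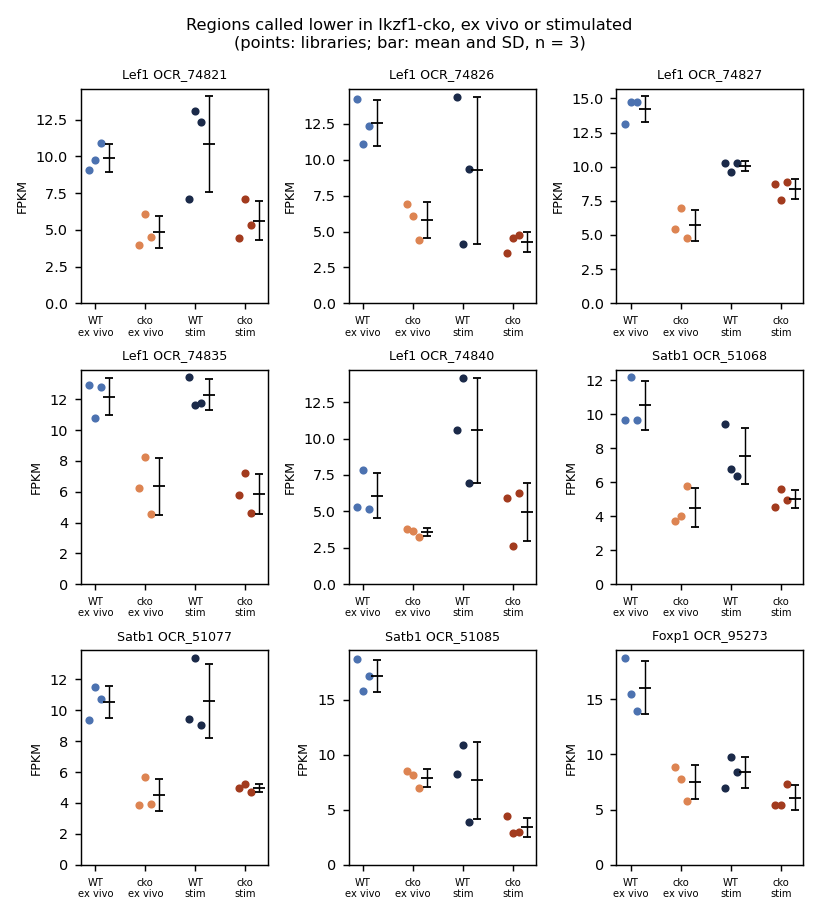
FPKM of each library (points) in the 9 regions called lower in Ikzf1-cko Treg ex vivo or after stimulation, with mean and SD (bar, n = 3). WT ex vivo points lie above Ikzf1-cko ex vivo points in all 9 panels, whereas stimulated WT points scatter widely in Lef1 OCR_74826 and Satb1 OCR_51085.

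Bach2 moved in the opposite direction near its start. The intronic region OCR_77756, 12 kb into the gene, measured 50.7, 44.7 and 55.8 FPKM in WT and 78.7, 90.1 and 75.3 in Ikzf1-cko ex vivo libraries (log2 fold change 0.69, SE 0.08, adjusted p = 3.3e-07), the largest rise of the members. Its neighbours OCR_77755 and OCR_77757, 11.1 and 19.4 kb into the gene, rose by 0.45 and 0.30 on the log2 scale, and the downstream region OCR_77827 rose by 0.47. In all, 4 of the 54 tested Bach2 regions rose and 11 fell ex vivo, where 8.78% of all tested regions rose and 12.7% fell. None of the 54 was called by edgeR, while 27 had an unadjusted p under 0.05. At Foxp1 3 of 39 tested regions rose, with OCR_95255 from 21.1, 20.1 and 20.3 to 31.0, 32.5 and 26.4 FPKM (0.56, SE 0.11, adjusted p = 6.8e-04).

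The ex vivo calls lay mostly in weak regions and depended on how the libraries were scaled. Of the 7 called regions 5 were among the weakest 20% of tested regions by level. That class held 15 members, so 5 of 15 were called lower, where 10.0% of all its regions were. In the strongest 20%, none of the 35 members and 0.214% of all regions were called lower. With TMM factors 3 of the 7 remained called, with DESeq2 4, and with loess normalization against level 0, although Lef1 OCR_74821 and OCR_74827, Satb1 OCR_51068 and Foxp1 OCR_95273 kept an adjusted p under 0.05 there (0.048, 0.017, 0.017 and 2.5e-04).

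After stimulation, members rose and fell in Ikzf1-cko against WT Treg in shares below those of all regions. Under the adjusted p alone 27 members rose and 21 fell, where 20.4% of all tested regions rose and 30.7% fell. DESeq2 gave 29 rising and 10 falling members, and loess normalization 12 and 19. The 5 called regions were all lower, which is 3.18% of the members, where 20.2% of all regions were called lower and 1.16% higher. The called regions were Satb1 OCR_51077 and OCR_51085 and Lef1 OCR_74826, OCR_74835 and OCR_74840. The median log2 fold change was -0.018 over the members and -0.11 over all tested regions. Among all regions this comparison followed level: the median was -1.41 in the weakest 20% and 0.32 in the strongest 20%, beside the larger share of reads in weak regions of the stimulated WT libraries. The part of that share in the result was not tested.

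Of the 27 rises 8 were among the 28 tested regions of Lef1, and 5 of those lay next to each other in an intron. The regions 43.6 to 49.1 kb into the gene, OCR_74829 to OCR_74833, all rose. OCR_74832, the most accessible region of Lef1, measured 36.5, 36.5 and 37.9 FPKM in stimulated WT and 49.9, 52.4 and 55.4 in stimulated Ikzf1-cko libraries (log2 fold change 0.51, SE 0.11, adjusted p = 2.9e-04), with no overlap. Ex vivo it measured 47.8, 46.9 and 55.0 FPKM in WT and 48.4, 46.8 and 39.7 in Ikzf1-cko libraries, which overlapped (-0.15, SE 0.10, adjusted p = 0.26). OCR_74842, 98.1 kb into the gene, measured 25.1, 23.1 and 22.6 FPKM in stimulated WT and 33.5, 31.7 and 36.1 in stimulated Ikzf1-cko libraries (0.52, SE 0.09, adjusted p = 3.8e-05). Among the weak Lef1 regions, OCR_74835 measured 13.5, 11.7 and 11.8 FPKM in WT and 5.77, 7.22 and 4.64 in Ikzf1-cko libraries (-1.07, SE 0.36, adjusted p = 0.014). OCR_74840, over exon 6, measured 10.6, 14.2 and 6.95 against 5.93, 2.63 and 6.23 FPKM (-1.10, SE 0.27, adjusted p = 0.0012).

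At Bach2 10 of 54 and at Foxp1 7 of 39 tested regions rose as well, where 20.4% of all tested regions rose. In the strongest 20% of regions by level the median was 0.21 over the members and 0.32 over all. Bach2 OCR_77804 measured 8.62, 13.4 and 12.9 FPKM in stimulated WT and 18.5, 18.5 and 23.1 in stimulated Ikzf1-cko libraries (log2 fold change 0.81, SE 0.16, adjusted p = 1.7e-04). Downstream of Bach2, OCR_77827 measured 14.5, 16 and 13.4 against 23.9, 22.7 and 25.7 FPKM (0.72, SE 0.11, adjusted p = 5.9e-06). Foxp1 OCR_95255 measured 14.5, 17.4 and 17.3 against 23, 31.3 and 27.7 FPKM (0.75, SE 0.13, adjusted p = 2.7e-05). None of these groups overlapped. Groups of the called Satb1 region OCR_51085 overlapped in this comparison. With loess normalization the 5 called falls were lost: Satb1 OCR_51077 and OCR_51085 stood at -0.078 and -0.076, and Lef1 OCR_74826 and OCR_74835 turned to 0.19 and 0.055. The call count was 2 without stimulated WT replicate 2 and 8 without stimulated WT replicate 1.

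Stimulation of WT Treg closed regions of Bach2, Foxp1 and Satb1. Under the adjusted p alone 72 of the 157 members fell and 5 rose, where 20.7% of all tested regions fell and 26.9% rose. The 14 called members were all lower, which is 8.92%, where 2.32% of all regions were called lower and 17.7% higher. Of the 14, 10 were regions of Bach2, 3 of Foxp1 and 1 of Satb1. The median log2 fold change was -0.39 over the members, -0.55 over Bach2, -0.55 over Foxp1, -0.47 over Satb1 and 0.04 over all tested regions. Here the calls lay in strong regions, 11 of 14 in the upper 2 of 5 equal classes by level. They were 7 of 43 and 4 of 35 members there, where 3.64 and 4.38% of all regions were called lower. Among all regions the median ran from 1.32 in the weakest class to -0.25 in the strongest. In the upper 2 classes the members had medians of -0.57 and -0.57, against -0.19 and -0.25 over all regions.

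Of the 10 called Bach2 regions 7 lay in introns between 124.9 and 185.8 kb from the start. OCR_77799 measured 32.0, 31.6 and 36.8 FPKM in WT ex vivo and 10.2, 14.2 and 15.6 in stimulated WT libraries (log2 fold change -1.35, SE 0.18, adjusted p = 8.4e-07), the largest fall of the members. The next regions, OCR_77800 and OCR_77801, fell from 42.9, 38.0 and 47.1 to 14.0, 22.0 and 21.3 FPKM (-1.18, SE 0.20, adjusted p = 1.9e-05) and from 59.7, 59.2 and 66.5 to 23.3, 29.7 and 29.0 FPKM (-1.19, SE 0.11, adjusted p = 1.6e-09). OCR_77788, 105.4 kb into the gene, fell from 43.1, 47.9 and 47.4 to 20.5, 21.4 and 15.1 FPKM (-1.28, SE 0.11, adjusted p = 3.8e-10). No library of one state reached the level of the other in these regions. The most accessible Bach2 region, OCR_77757, fell from 73.4, 72.5 and 79.2 to 37.7, 48.6 and 36.7 FPKM (-0.87, SE 0.10, adjusted p = 2.1e-08).

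**Figure D4:**
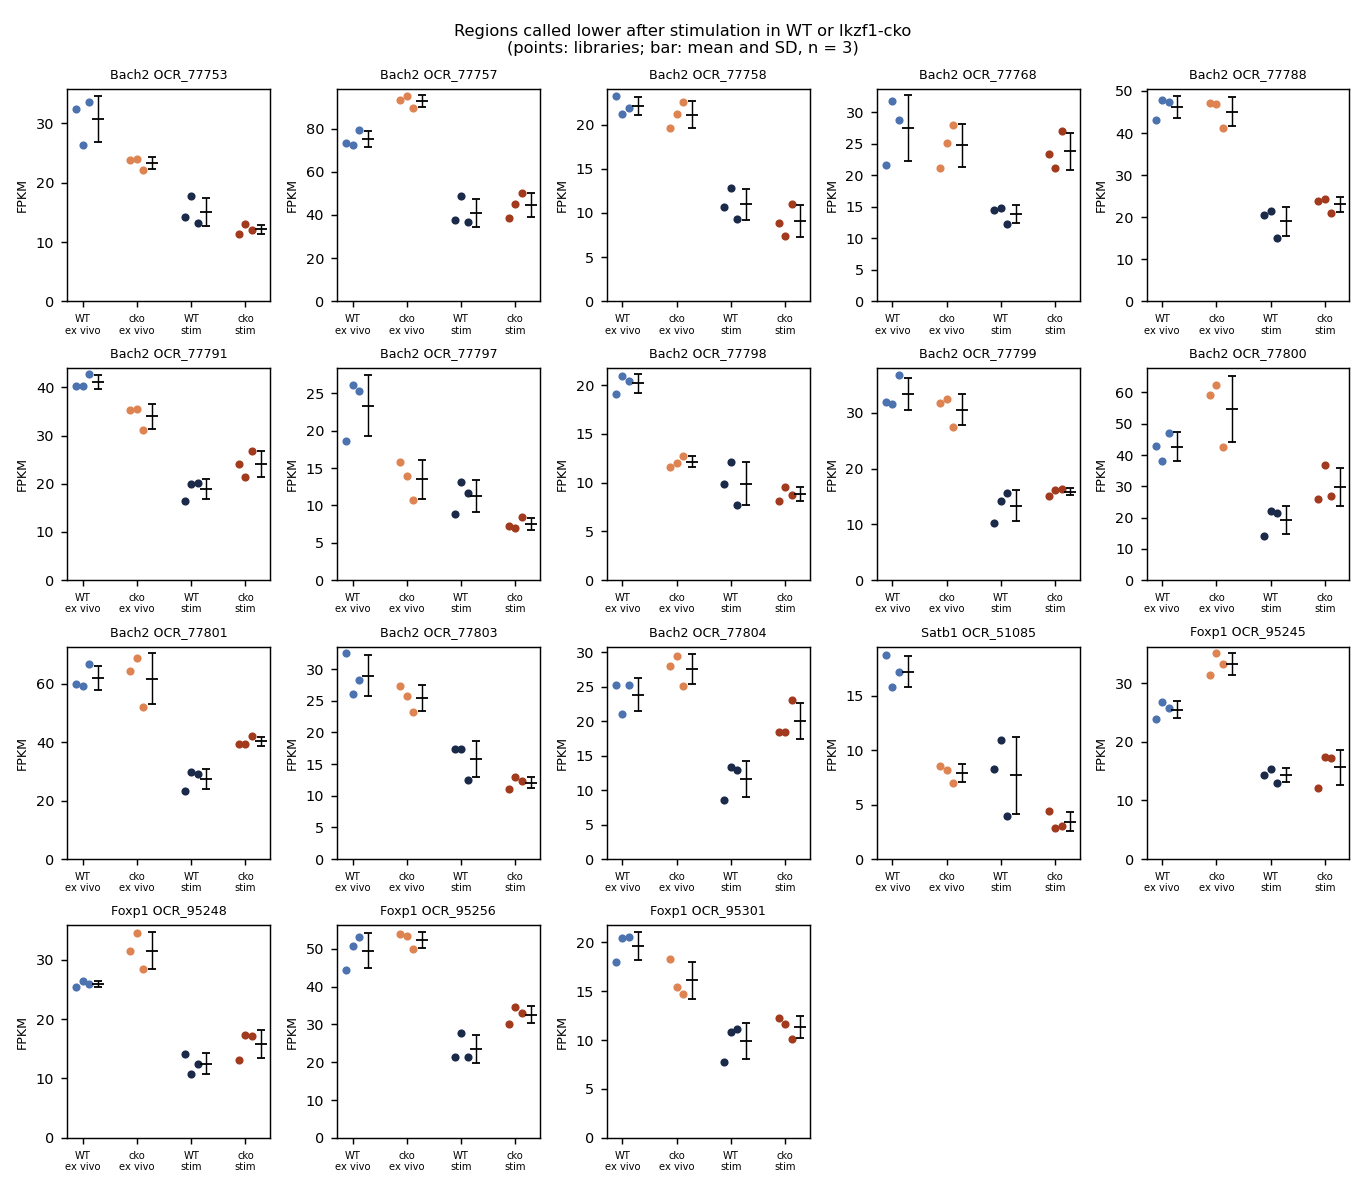
FPKM of each library (points) in the 18 regions called lower after stimulation in WT or in Ikzf1-cko Treg, with mean and SD (bar, n = 3). Stimulated WT points lie below WT ex vivo points in all 18 panels, and in Bach2 OCR_77768 the stimulated Ikzf1-cko points stay at the ex vivo level.

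At Foxp1, intronic OCR_95256 fell from 44.3, 50.8 and 53.2 FPKM to 21.3, 27.9 and 21.5 (log2 fold change -1.08, SE 0.11, adjusted p = 4.4e-09). OCR_95248 fell from 25.5, 26.4 and 26.0 to 14.2, 10.7 and 12.5 FPKM (-1.05, SE 0.16, adjusted p = 8.0e-06). OCR_95301, 16.9 kb upstream, fell from 18.0, 20.4 and 20.5 to 7.74, 10.8 and 11.2 FPKM (-1.01, SE 0.17, adjusted p = 2.2e-05). It also lies inside the annotated body of Eif4e3, a translation initiation factor gene. The most accessible Foxp1 region, OCR_95262, fell by 0.84 on the log2 scale (adjusted p = 1.0e-05). At Klf2, OCR_108153, 3.3 kb from the start, fell from 26.1, 28.6 and 30 to 15.7, 19.7 and 13.8 FPKM (-0.79, SE 0.13, adjusted p = 2.3e-05). The Lef1 region with the smallest p was OCR_74842, from 39.6, 43.3 and 46.7 to 25.1, 23.1 and 22.6 FPKM (-0.88, SE 0.09, adjusted p = 1.0e-08).

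The 14 calls became 16 with TMM, 17 with DESeq2 and 12 with loess normalization, and all 14 kept an adjusted p under 0.05 in each of those, although loess shared only 4 of its 12 calls with them. Without stimulated WT replicate 2 there were 27 calls. In bulk libraries, a lower share of resting cells among the Treg and lower accessibility in each cell cannot be told apart, which holds for each fall described here.

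Stimulation of Ikzf1-cko Treg also lowered Bach2 and Foxp1. Under the adjusted p alone 48 members fell and 3 rose, where 11.5% of all tested regions fell and 12% rose. The 5 called members were all lower, which is 3.18%, where 0.632% of all regions were called lower and 3.02% higher. They were Bach2 OCR_77757, OCR_77758 and OCR_77803, Foxp1 OCR_95245 and Satb1 OCR_51085. The median log2 fold change was -0.15 over the members, -0.43 over Bach2, -0.22 over Foxp1 and 0.06 over all tested regions. In the strongest 20% of regions by level it was -0.33 over the members and -0.022 over all. Bach2 OCR_77757 fell from 93.2, 95.0 and 89.7 to 38.7, 45.3 and 50.0 FPKM (-1.05, SE 0.08, adjusted p = 1.8e-10). OCR_77756, the region higher in Ikzf1-cko Treg ex vivo, fell from 78.7, 90.1 and 75.3 to 54.9, 48.1 and 53.0 FPKM (-0.65, SE 0.08, adjusted p = 3.7e-07) and stayed above the stimulated WT libraries, which measured 36.4, 41.9 and 37.3. Foxp1 OCR_95245 fell from 31.3, 35.1 and 33.3 to 12.2, 17.4 and 17.3 FPKM (-1.08, SE 0.10, adjusted p = 6.5e-09). The WT and Ikzf1-cko stimulation comparisons share no library.

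All 5 calls held an adjusted p under 0.05 with TMM, DESeq2, loess normalization and without each library in turn. Calls numbered 9 when Ikzf1-cko ex vivo replicate 3 was left out, 8 without stimulated Ikzf1-cko replicate 2 and 3 without stimulated Ikzf1-cko replicate 1.

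Whether the genotype difference depended on the state was tested directly, as the genotype difference after stimulation minus that ex vivo. By the adjusted p 15 members passed, all with a positive difference, 5 each of Lef1 and Foxp1, 4 of Bach2 and 1 of Satb1. Of all tested regions 5.66% were higher and 1.82% lower by that measure. Among all regions it followed level, with a median of -0.69 in the weakest 20% and 0.20 in the strongest 20%. The 35 members in the strongest 20% had a median of 0.25. In the next class the 43 members had 0.24 and all regions 0.11. The part of level in the positive signs was not tested. One member was called, where 0.579% of all regions were called higher and 1.40% lower. The called region, Foxp1 OCR_95264, lies in an intron 165.8 kb from the start and measured 14.0, 20.2 and 21.8 FPKM in WT ex vivo, 9.45, 11.4 and 13.1 in Ikzf1-cko ex vivo, 12.6, 9.76 and 9.52 in stimulated WT and 19.0, 17.5 and 21.0 in stimulated Ikzf1-cko libraries. In WT Treg it fell with stimulation (log2 fold change -0.83, SE 0.26, adjusted p = 0.0094) and in Ikzf1-cko Treg it rose (0.78, SE 0.21, adjusted p = 0.0062). The difference was 1.61 (SE 0.33, adjusted p = 0.0028) and rests on 12 to 63 reads per library.

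At Bach2 OCR_77768 stimulation lowered WT but not Ikzf1-cko libraries, and that difference passed the test. It measured 21.7, 31.9 and 28.9 FPKM in WT ex vivo and 14.4, 14.8 and 12.2 in stimulated WT libraries, against 21.2, 25.1 and 28 and then 23.3, 21.1 and 27.0 FPKM in Ikzf1-cko Treg (difference 0.96, SE 0.21, adjusted p = 0.0045). Lef1 OCR_74829 measured 41.4, 39.3 and 43.7 FPKM in WT ex vivo, 27.3, 31.3 and 28.9 in Ikzf1-cko ex vivo, 24.5, 32.8 and 20.4 in stimulated WT and 34.9, 31.9 and 33.7 in stimulated Ikzf1-cko libraries (difference 0.87, SE 0.19, adjusted p = 0.0037). By group means both regions were lowest in stimulated WT Treg, but at OCR_74829 those libraries overlapped both Ikzf1-cko groups. With loess normalization 5 members passed with a positive and 3 with a negative difference. Without stimulated WT replicate 2 the calls numbered 4, and without any one of Ikzf1-cko ex vivo replicates 1 and 3, stimulated Ikzf1-cko replicate 2 or WT ex vivo replicate 1 they numbered 2.

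With the reads of all tested regions of a locus pooled over their covered length, Bach2 measured 23.2 FPKM ± 1.02 (SD, n = 3) in WT ex vivo, 24.5 ± 1.22 in Ikzf1-cko ex vivo, 14.7 ± 1.70 in stimulated WT and 16.8 ± 0.5145 in stimulated Ikzf1-cko Treg. Foxp1 followed the same order of states, with 21.1 ± 0.712, 20.4 ± 1.33, 14.2 ± 1.59 and 16.4 ± 0.724 FPKM. In both genes the ex vivo and the stimulated libraries did not overlap, while the genotypes overlapped within each state. With TMM sizes the stimulated genotypes did not overlap, with 13.2 to 15.4 FPKM in WT and 16.3 to 17.8 in Ikzf1-cko libraries at Bach2 and 12.6 to 14.8 and 15.6 to 17.5 at Foxp1. Satb1 was highest in WT ex vivo, with 18.0 ± 1.03 against 15.0 ± 1.17, 13.6 ± 1.41 and 13.2 ± 0.434 FPKM. Lef1 was also highest in WT ex vivo, with 21.2 ± 0.666 against 18.7 ± 1.196, 16.7 ± 1.59 and 18.8 ± 1.12 FPKM, and the WT ex vivo libraries overlapped none of the others at either gene. With TMM sizes they overlapped the Ikzf1-cko ex vivo libraries, with 19.4 to 22.3 against 17.6 to 21 FPKM at Lef1 and 15.8 to 18.7 against 14 to 17.3 at Satb1. Tcf7 measured 20.6 ± 0.857, 20.2 ± 1.44, 19.1 ± 2.11 and 17.7 ± 1.12 FPKM and Klf2 26.2 ± 1.34, 26.2 ± 1.39, 24.1 ± 1.96 and 25.2 ± 2.09 FPKM, with neighbouring groups overlapping in each. These pooled levels describe the loci and carry no test.

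**Figure D5:**
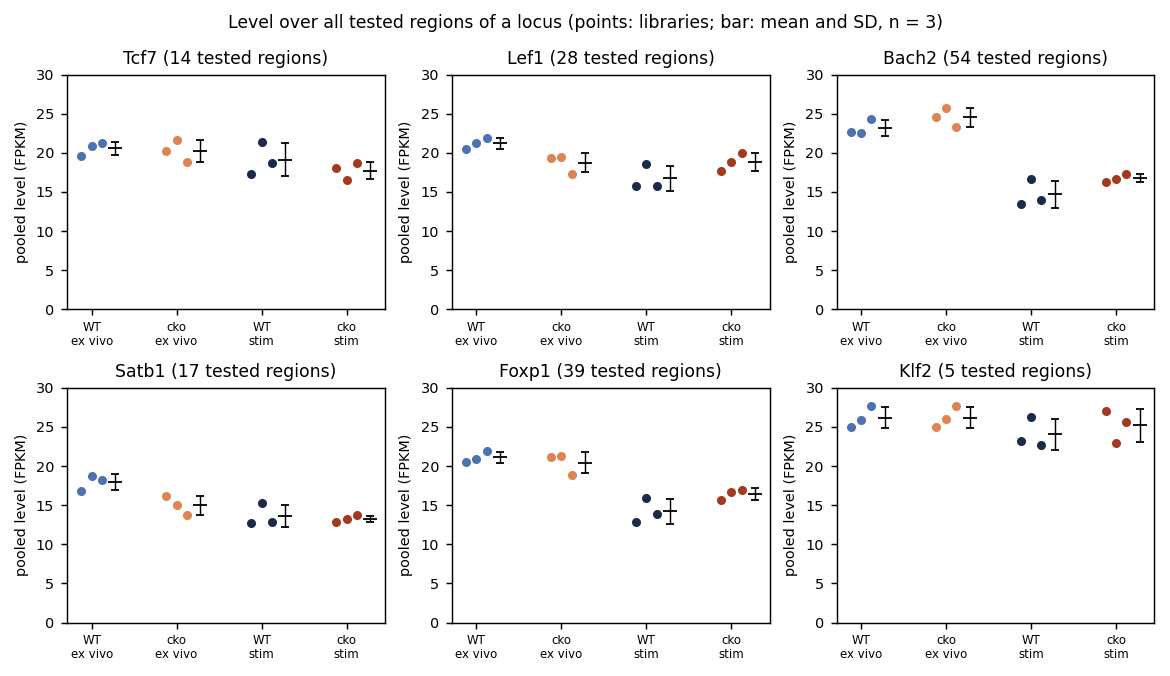
Pooled level (FPKM) over the tested regions of each locus in each library (points), with mean and SD (bar, n = 3), by group. Bach2 and Foxp1 fall from ex vivo to stimulated in both genotypes, with Bach2 going from 23.2 to 14.7 FPKM in WT, whereas Klf2 stays between 24.1 and 26.2 FPKM in all 4 groups.

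The genes whose summed reads (log2 CPM) over the 12 libraries were most like each locus, among up to 6895 genes with 5 or more tested regions, were Stk4, Zeb1 and Gm10125 for Bach2 (Pearson r = 0.995, 0.994 and 0.993) and Plcxd2, Peli1 and S1pr1 for Foxp1 (0.989, 0.986 and 0.983). For Satb1 they were Eif4e3, Zscan10 and Bcl2l11 (0.976, 0.964 and 0.952) and for Lef1 Uggt1, Fndc7 and P2ry14 (0.970, 0.970 and 0.966). The window of Eif4e3 takes in the Foxp1 member OCR_95301, so this match is not separate from the loci examined. Tcf7 and Klf2 had looser matches, led by Zdhhc18 (0.898) and Txlna (0.811). The points share the 4 groups and the scaling of each library, and the r values only describe likeness.

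Other genes of the naive program held calls with stimulation too, in 8 of 16 genes in WT Treg, of which Cd27 had only a higher call. In a list of 16 genes, among them Ccr7, S1pr1, Il7r and Ets1, 219 regions were tested, and 13 were called lower and 2 higher after stimulation of WT Treg, with a median log2 fold change of -0.28, where 2.32% of all tested regions were called lower and 17.7% higher. In Ikzf1-cko Treg, where the shares over all regions were 0.632% and 3.02%, 10 were called lower and 3 higher, and at Ets1, a factor of resting lymphocytes, 6 of 42 regions were. Ex vivo 3 of the 219 were called lower in Ikzf1-cko Treg by edgeR and 0 higher, and after stimulation 1 lower and 3 higher, 2 of the latter at Il7r, the interleukin-7 receptor gene. The 3 ex vivo calls are 1.37% of the list, below the 4.04% of all regions called lower. In a list of 14 effector Treg genes with 134 tested regions, 9 were called higher in Ikzf1-cko Treg ex vivo and 0 lower, which is 6.72%, where 0.588% of all regions were called higher and 4.04% lower. Of those 9, 5 lay at Klrg1, a receptor of terminally differentiated Treg, and 1 each at Il10, Batf, Tigit and Il1rl1. After stimulation 4 effector regions (2.99%) were called higher and 0 lower, where 1.16% of all regions were called higher and 20.2% lower. Stimulation of WT Treg gave 3 effector regions called lower and 1 higher. Under the adjusted p alone 51 of the 134 effector regions fell and 5 rose, with a median of -0.31. In the naive list 85 of 219 fell and 12 rose. In Ikzf1-cko Treg 34 effector regions fell and 9 rose, against 60 and 15 naive regions. Among all tested regions 20.7% fell and 26.9% rose in WT, and 11.5% fell and 12% rose in Ikzf1-cko Treg. By the adjusted p alone, falls with stimulation were thus not particular to the naive list. Calls of lower regions were fewer in the effector list. In WT Treg they were 3 of 134 against 13 of 219 naive regions, with 2.32% over all regions. In Ikzf1-cko Treg they were 1 of 134 against 10 of 219, with 0.632% over all regions.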

How the data were processed

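Sorted YFP+ Treg were profiled by ATAC-seq in 12 libraries, grouped by their labels into WT ex vivo, Ikzf1-cko ex vivo, WT stimulated and Ikzf1-cko stimulated, 3 each. The authors aligned reads with Bowtie2, removed duplicates, called peaks with MACS2 and merged reproducible peaks into one region set; per the labels the build is mm9. The authors deposited a raw count per region and library, and an FPKM equal to the count over region length and library total. A second deposited table holds their own fold changes and tests, made after a background scaling not repeated here, and was not used.

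Counts were tested with edgeR 4.0.16 in R 4.3.3 (library totals as scaling, 4 group means, at least 3.6 CPM in 3 libraries, Benjamini-Hochberg over all 69957 tested regions). SE is the log2 fold change over the square root of F. On counts simulated for the ex vivo comparison over 69957 regions, 194 of 200 regions changed by 2 on the log2 scale were recovered, with 5 false calls. The simulation held no changes near 1 and no shift between weak and strong regions. It therefore does not measure error for member calls near the fold threshold or for their dependence on scaling. The members, gene lists and named regions (per gene the start region, the strongest, the smallest p in each comparison, and all ex vivo calls, with other regions added after their values were seen) were chosen with earlier results of these data known. Alternatives were TMM, DESeq2 1.42.0, loess offsets, limma 3.58.1 on log2(FPKM + 1) and log2(FPKM + 0.1), other filters, thinned counts, a replicate block and leaving out each library. Annotation was GENCODE on mm9. Intervals for counting error were not added to the values, whose spread is given over libraries.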

Additional observations from a re-analysis of the deposited data

Results flagged for a closer look

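The genotype difference after stimulation exceeded that ex vivo in 15 regions, each with an adjusted p under 0.05 for the difference itself (edgeR), given here on the log2 scale. At Lef1 it was 0.872 at OCR_74829, 0.834 at OCR_74830, 0.864 at OCR_74831, 0.666 at OCR_74832 and 0.561 at OCR_74842. At Foxp1 it was 1.61 at OCR_95264, 0.825 at OCR_95247, 0.557 at OCR_95262, 0.498 at OCR_95270 and 0.478 at OCR_95261. At Bach2 it was 0.965 at OCR_77768, 0.794 at OCR_77764, 0.639 at OCR_77791 and 0.57 at OCR_77801, and at Satb1 0.873 at OCR_51066. In the 12 fits that each left out 1 library, OCR_95264, OCR_74829, OCR_74832, OCR_74842, OCR_77768 and OCR_77791 kept an adjusted p under 0.05 each time, and the other 9 lost it in at least 1 fit. With loess normalization OCR_74842 (adjusted p = 0.071) and OCR_77791 (0.062) no longer passed, nor did any of those 9. OCR_95264, OCR_74829, OCR_74832 and OCR_77768 still passed there.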

How the results depend on the processing

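Counts of called members are given against 7, 5, 14, 5 and 1 for the ex vivo genotype, stimulated genotype, WT stimulation, Ikzf1-cko stimulation and between-state comparisons. Without the fold threshold they were 45, 48, 77, 51 and 15. DESeq2 gave 4, 2 and 0 in the first, second and last, where Foxp1 OCR_95264 had no adjusted p and 11 members passed the adjusted p alone, and TMM gave 3 ex vivo and 9 in stimulated Ikzf1-cko Treg. Loess normalization gave 0 ex vivo, 2 in the stimulated genotype comparison, both higher, and 2 between states. The filter in all 12 libraries, which left 89 members, gave 0, 0, 2 in Ikzf1-cko stimulation and 0 between states. No filter gave 18, 8 and 14 in the ex vivo, stimulated genotype and Ikzf1-cko stimulation comparisons, 9 of the last higher. limma on log2(FPKM + 1) gave 0 in the stimulated genotype and 8 in the WT stimulation comparison, and on log2(FPKM + 0.1) 2 between states, as did counts thinned to the smallest library. Leaving out 1 library gave 5 to 10, 2 to 8, 10 to 27, 3 to 9 and 1 to 4. The widest moves were 27, 2 and 4 without stimulated WT replicate 2, 8 (stimulated genotype) without stimulated WT replicate 1, and 9, 8 and 3 (Ikzf1-cko stimulation) without Ikzf1-cko ex vivo replicate 3 and stimulated Ikzf1-cko replicates 2 and 1. Whether shared replicate numbers mark a shared preparation is not known. Deviations of 18 same-numbered pairs correlated at -0.36 to 0.28, and those of differing numbers at -0.38 to 0.40. With 3 libraries per group this cannot exclude pairing. A replicate block gave 7, 6, 14, 5 and 1 calls, and a block within genotype 13, 5 and 1 in the last 3 comparisons.

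Loess reversed 7 of 3741 values of named regions. In the stimulated genotype comparison they were Bach2 OCR_77752 (-0.1063) and OCR_77757 (-0.2658), Satb1 OCR_51090 (-0.1893), Klf2 OCR_108152 (-0.2721) and Lef1 OCR_74826 (0.1862), and in WT stimulation Satb1 OCR_51090 (0.05118) and OCR_51077 (-0.8771, adjusted p = 0.0173). Of the others 3532 kept direction and side of the threshold, 129 lost and 73 gained it. Pooled levels moved beyond 1 SD with untested members included, for WT ex vivo, Ikzf1-cko ex vivo and stimulated Ikzf1-cko to 19.37, 16.77 and 17.14 FPKM at Lef1, 20.68, 21.48 and 15.03 at Bach2, and 16.48, 13.42 and 12.12 at Satb1, and in the 4 groups to 17.69, 16.91, 12.62 and 14.01 at Foxp1. TMM sizes moved Ikzf1-cko ex vivo to 25.92 at Bach2 and 27.63 at Klf2. The causes were not tested beyond what fewer regions or libraries imply. Weak regions rest on few reads, 6 to 47 per library at Satb1 OCR_51085, which limits their precision.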
